A study of Mus musculus with 4 samples.

Results

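Cytochrome P450 genes were followed through 4 fractions of mouse embryonic fibroblasts (MEFs) in reprogramming, in which a specialised cell is turned back to a pluripotent one. The genes were taken by symbol, as Cyp followed by a family number, a subfamily letter and a gene number, which gave 70 of the 18193 genes with 1 symbol on the array. The symbol Cyp51 falls outside that pattern and was read only as a gene of cholesterol synthesis. Where a gene has several probe sets, the one whose mean over the arrays was highest stands for it. Per the labels, all cells were fixed, permeabilized, stained for the pluripotency factors Oct4 and Klf4 and the epithelial adhesion molecule EpCAM, and sorted. In gate order these gave 1 array each of Oct4-negative cells, of Oct4+Klf4-negative cells, of Oct4+Klf4+EpCAM-negative cells and of Oct4+Klf4+EpCAM+ cells. The labels give no strain, age, day of sorting or introduced factors, and leave unsaid if 1 culture gave all fractions.

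P450 enzymes hold a heme group that activates oxygen and inserts an oxygen atom into a lipid, steroid, vitamin or foreign compound. Most act in the endoplasmic reticulum with electrons from a reductase, and a few act in mitochondria with electrons from ferredoxin. The liver is known for many family 2 and family 3 enzymes that clear drugs, while single members serve fixed tasks elsewhere, such as retinoic acid breakdown in the embryo, hormone synthesis in the adrenal gland and lipid barrier formation in the epidermis. In fibroblasts, Cyp1b1 is the best known member, and its transcription is driven by the aryl hydrocarbon receptor, a sensor of planar aromatic compounds.

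Levels are log2 values of a probe set, and with 1 array per fraction no difference has a replicate check or a test. They were read against a floor of 4.53, which is the median over every value of the 4 arrays, and against a background ceiling of 2.94, the top level seen among 27 bacterial control probe sets that stay low. Calls of higher or lower needed a 2-fold difference and at least 1 level at or above the floor. The comparisons were the Oct4 step (Oct4+Klf4-negative minus Oct4-negative), the Klf4 step (Oct4+Klf4+EpCAM-negative minus Oct4+Klf4-negative), the EpCAM step (Oct4+Klf4+EpCAM+ minus Oct4+Klf4+EpCAM-negative) and the ends (Oct4+Klf4+EpCAM+ minus Oct4-negative). Over 5708 genes with several probe sets, log2 differences scattered within a gene with a median SD of 0.167, 0.172, 0.122 and 0.177 in that order, which holds no variation among cultures or sorts. Levels of different probe sets cannot be ranked against each other, so only the levels of 1 gene are compared across arrays. Array medians lay between 4.49 and 4.55. Pou5f1, which encodes Oct4, had levels of 7.59, 11.48, 11.66 and 11.70 in gate order, and Epcam had levels of 4.63, 5.20, 6.54 and 9.52. Klf4 itself has 2 probe sets that disagreed at its own gate, the brighter one with levels of 7.32, 6.24, 10.20 and 10.60, and the other with levels of 6.95, 5.69, 2.67 and 3.20. As a reading of RNA integrity, Gapdh signal at the 3′ end exceeded that at the 5′ end by 1.3 on the log2 scale in the Oct4+Klf4-negative array and by 0.97 to 1.04 elsewhere. The same difference for Actb lay between -0.07 and -0.05 on all 4 arrays, so it did not set that array apart.

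Few P450 genes were measured in these cells. Of the 70 members, 26 passed the background ceiling on at least 1 array (37.1%), beside 80.8% of all genes. Of the 70 members, 9 reached the floor on at least 1 array (12.9%), beside 62.8% of all genes. These were Cyp1b1, Cyp2s1, Cyp2j6, Cyp4f16, Cyp4f39, Cyp20a1, Cyp39a1, Cyp21a1 and Cyp11a1. The number reaching the floor was 5 in the Oct4-negative array, 7 in Oct4+Klf4-negative, 6 in Oct4+Klf4+EpCAM-negative and 7 in Oct4+Klf4+EpCAM+. Among the 61 members below the floor, 17 lay above the background ceiling on some array and 44 lay at or below it on every array. Those 44 had levels of 1.73 to 2.87, and their largest range over the 4 arrays was 0.68. Nearest to the floor were Cyp11a1 on its upper side, with a highest level of 4.76, and Cyp24a1 on its lower side, with 4.49.

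**Figure D1:**
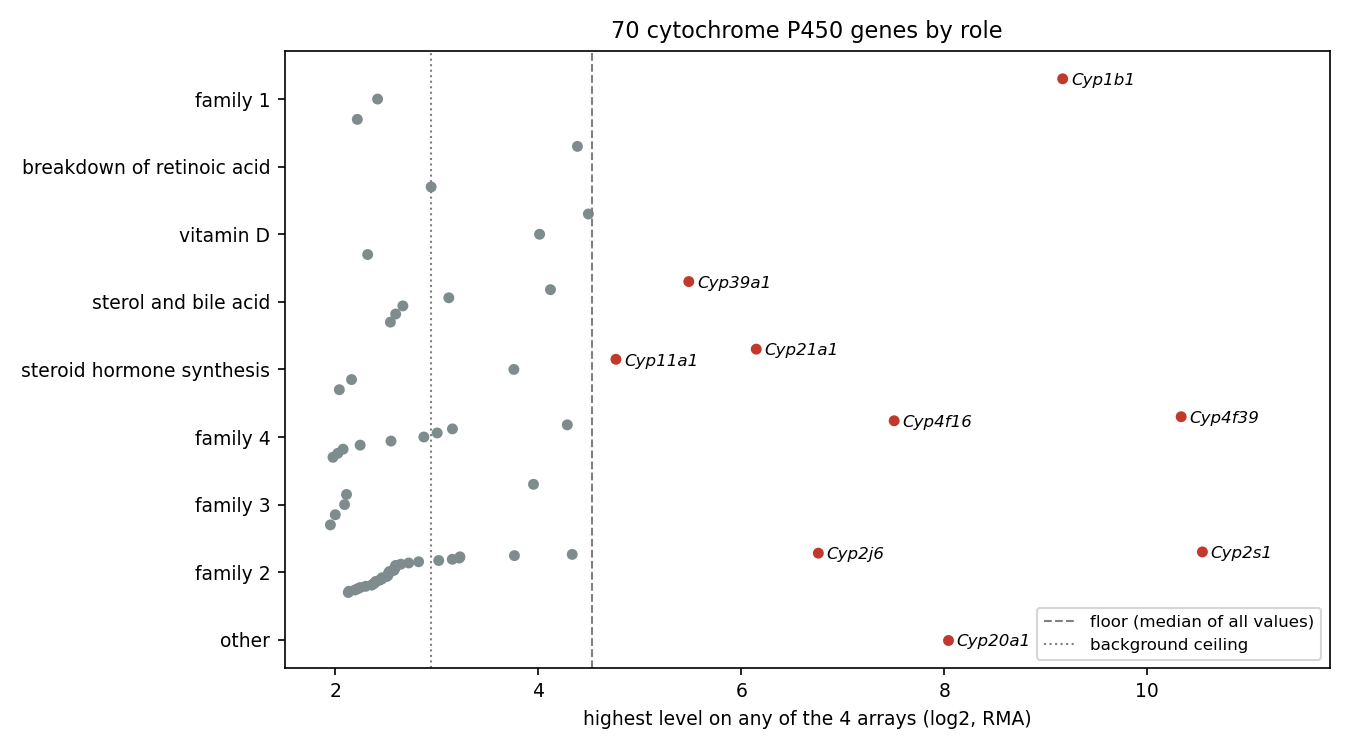
Highest level on any of the 4 arrays (log2, RMA) for each of the 70 P450 genes, 1 point a gene, in rows by role. Red points are the 9 genes that reached the floor of 4.53 (dashed line), grey points the 61 that did not, and the dotted line is the background ceiling of 2.94. Points of different genes come from different probe sets, so they are read against the lines and not against each other.

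By role, the measured members were scattered. The drug and fatty acid enzymes of family 2 were the biggest group, with 34 genes on the array, of which 2 reached the floor and 26 stayed at or below the ceiling. Family 4, which acts on fatty acids and eicosanoids, had 2 of 11 at the floor, and steroid hormone synthesis 2 of 5. Of 3 family 1 genes and of 6 sterol and bile acid genes, 1 each reached it. The single gene without a known substrate group, Cyp20a1, did too. None of 5 family 3 genes, 3 vitamin D genes or 2 retinoic acid genes reached the floor on any array. Hepatocyte markers were low too: of 10 on the array, 1 or 2 reached the floor on each, and the summed level stayed between 37.2 and 38.1. Alb, which encodes albumin, had levels of 3.86, 3.63, 3.55 and 3.85 in gate order.

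Across the gates, 6 of the 70 members reached the floor and spanned at least 2-fold over the 4 arrays (8.57%), beside 19.4% of all genes. Cyp2s1 and Cyp4f39 were far higher in both Klf4-positive arrays, Cyp1b1 was far lower there, and Cyp2j6 was moderately higher. Cyp39a1 stood out in the Oct4+Klf4-negative array alone, and Cyp11a1 differed between the ends of the series. Cyp4f16, Cyp20a1 and Cyp21a1 stayed within 0.33 on the log2 scale over all 4 arrays.

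**Figure D2:**
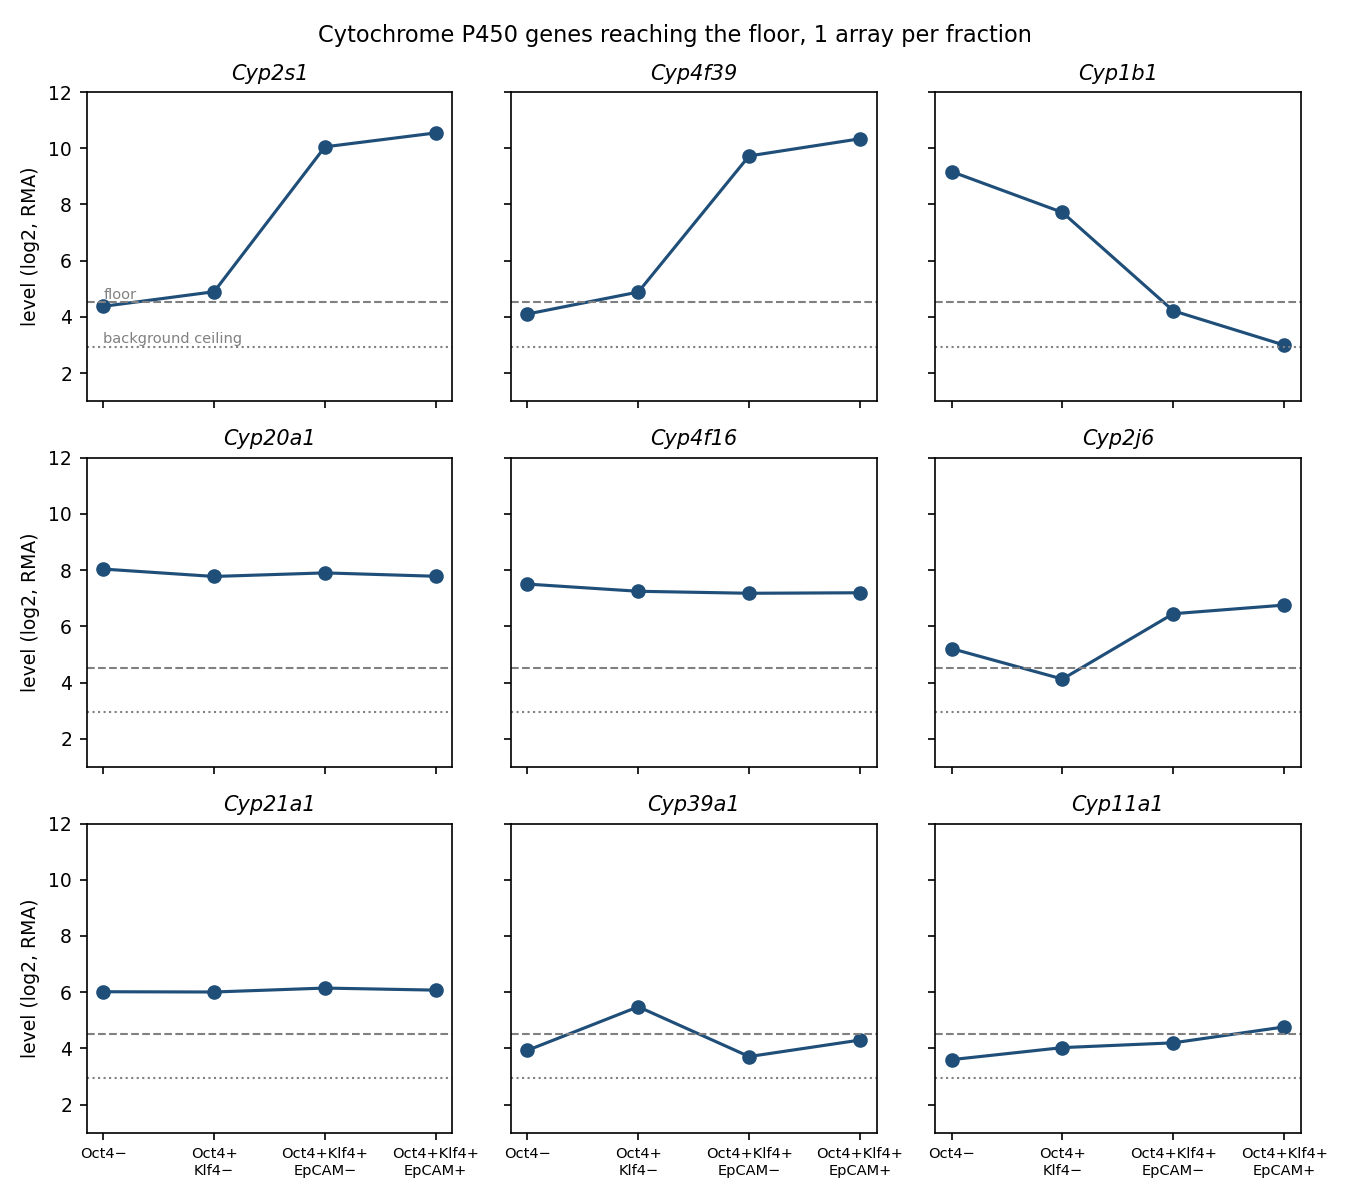
Levels (log2, RMA) of the 9 P450 genes that reached the floor, in the 4 fractions in gate order, 1 array and 1 point per fraction, with no error bars because no fraction has replicates. The dashed line is the floor of 4.53 and the dotted line the background ceiling of 2.94. Cyp2s1 and Cyp4f39 lie between 9.73 and 10.54 in the Klf4-positive arrays and between 4.10 and 4.90 in the other arrays, while Cyp1b1 runs the opposite way.

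The promoters of the 3 members with the largest differences are printed here because Cyp2s1 and Cyp4f39 moved together and Cyp1b1 moved against them. Sequences are from RefSeq on GRCm38.p6, from 250 bases before to 50 bases after the gene's start. The Cyp2s1 window is chr7:25816476-25816775 on the minus strand, that of Cyp4f39 is chr17:32452473-32452772 on the plus strand, and that of Cyp1b1 is chr17:79715012-79715311 on the minus strand. Each is printed 5′ to 3′ in the direction of its gene. Capitals mark the core bound by the aryl hydrocarbon receptor with its partner, spelled GCGTG and read on the opposite strand as CACGC. They also mark the core bound by Klf proteins, spelled CACCC and read on the opposite strand as GGGTG.
Cyp2s1: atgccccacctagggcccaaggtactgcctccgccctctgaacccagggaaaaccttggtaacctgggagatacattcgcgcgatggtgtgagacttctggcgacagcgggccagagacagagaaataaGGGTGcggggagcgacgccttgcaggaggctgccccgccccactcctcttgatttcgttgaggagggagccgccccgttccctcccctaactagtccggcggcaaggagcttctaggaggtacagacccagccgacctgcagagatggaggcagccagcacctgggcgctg
Cyp4f39: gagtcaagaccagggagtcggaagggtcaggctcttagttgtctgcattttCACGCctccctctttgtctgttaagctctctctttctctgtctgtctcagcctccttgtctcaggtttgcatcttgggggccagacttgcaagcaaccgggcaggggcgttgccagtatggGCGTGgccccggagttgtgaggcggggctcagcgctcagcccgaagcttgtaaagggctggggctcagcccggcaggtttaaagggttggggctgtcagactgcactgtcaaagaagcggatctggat
Cyp1b1: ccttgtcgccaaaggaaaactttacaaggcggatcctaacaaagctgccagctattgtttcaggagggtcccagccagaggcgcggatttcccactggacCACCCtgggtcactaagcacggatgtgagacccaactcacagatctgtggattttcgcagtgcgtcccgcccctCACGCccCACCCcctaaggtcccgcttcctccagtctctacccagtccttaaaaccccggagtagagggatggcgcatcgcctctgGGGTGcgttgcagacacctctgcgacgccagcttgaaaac

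With positions counted from the start, Cyp2s1 had 1 Klf core, at -121, and no aryl hydrocarbon receptor core. Cyp4f39 had 2 aryl hydrocarbon receptor cores, at -199 and -78, and no Klf core. Cyp1b1 had 1 aryl hydrocarbon receptor core, at -76, and 3 Klf cores, at -150, -69 and 11. No base belonged to both cores in these windows. Of 32851 promoter windows in the table, 32.4% held the aryl hydrocarbon receptor core and 57.5% the Klf core. Among 58 windows of the 51 P450 members that matched, the shares were 24.1% and 62.1%. The 2 members that were higher together shared neither core in this window, and sequence outside the window was not read. These matches are letters in a window, not binding sites, and their part in the differences was not tested.

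Family 1 was represented by Cyp1b1, which hydroxylates estradiol and aromatic compounds. Its levels were 9.17 in the Oct4-negative array, 7.72 in Oct4+Klf4-negative, 4.22 in Oct4+Klf4+EpCAM-negative and 3.0 in Oct4+Klf4+EpCAM+, each lower than the one before. In the last of these it lay close to the background ceiling. It was 2.74-fold lower in Oct4+Klf4-negative than in Oct4-negative cells, and 11.3-fold lower in Oct4+Klf4+EpCAM-negative than in Oct4+Klf4-negative cells. Between the ends the level was 72.0-fold lower in Oct4+Klf4+EpCAM+, which ranked 4 from the lowest end among the differences of 18193 genes. At the EpCAM gate its log2 difference was -1.22, but both levels lay below the floor and it was not called.

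The other Cyp1b1 probe sets ran the same way at the first gates. The second had levels of 6.54, 4.96, 2.27 and 2.21, a log2 difference of -4.33 between the ends, and lay below the ceiling in both Klf4-positive arrays. The third stayed below the floor, with levels of 4.17, 3.45, 3.06 and 3.15 and a log2 difference of -1.02 between the ends. With the 3 averaged, the log2 difference was -2.20 at the Klf4 step and -3.84 between the ends, and both were still called. The remaining family 1 genes, Cyp1a1 and Cyp1a2, which oxidise aromatic compounds in the liver, are named here after their values were seen. Neither passed 2.42 on any array, and both lay below the ceiling throughout.

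The aryl hydrocarbon receptor pathway did not move as a block. Of 7 listed genes on the array, all reached the floor, beside 62.8% of all genes. At the Oct4 step 2 were lower and 1 was higher, at the Klf4 step 1 was higher and 0 lower, and between the ends 2 were higher and 1 lower. Among all genes, 2.25%, 5.3% and 7.46% were higher in that order, and 3.04%, 4.32% and 6.77% lower. Ahrr, the repressor of the receptor and itself one of its targets, had levels of 5.51, 2.90, 1.66 and 2.29 in gate order. It reached the floor in the Oct4-negative array alone and was at least 5.94-fold lower in Oct4+Klf4-negative than in Oct4-negative cells. Ahr, the receptor, had levels of 7.37, 6.30, 5.72 and 6.41, and was 2.11-fold lower in Oct4+Klf4-negative than in Oct4-negative cells. Arnt, its partner, stayed between 8.49 and 8.87.

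Aldh3a1 and Tiparp of that list were higher between the ends, where Cyp1b1 was lower. Aldh3a1, an aldehyde dehydrogenase of the cornea and stomach, had levels of 4.33, 3.85, 7.79 and 7.49 and was 15.4-fold higher in Oct4+Klf4+EpCAM-negative than in Oct4+Klf4-negative cells. Tiparp, a target that dampens the receptor, had levels of 5.85, 6.92, 7.41 and 7.24. Nqo1, a quinone reductase, had levels of 7.97, 6.99, 7.16 and 7.15, lower after the Oct4 gate as Cyp1b1 was, but none of its differences was called. The list's median log2 difference between the ends was -0.34, beside 0.03 over all genes.

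**Figure D3:**
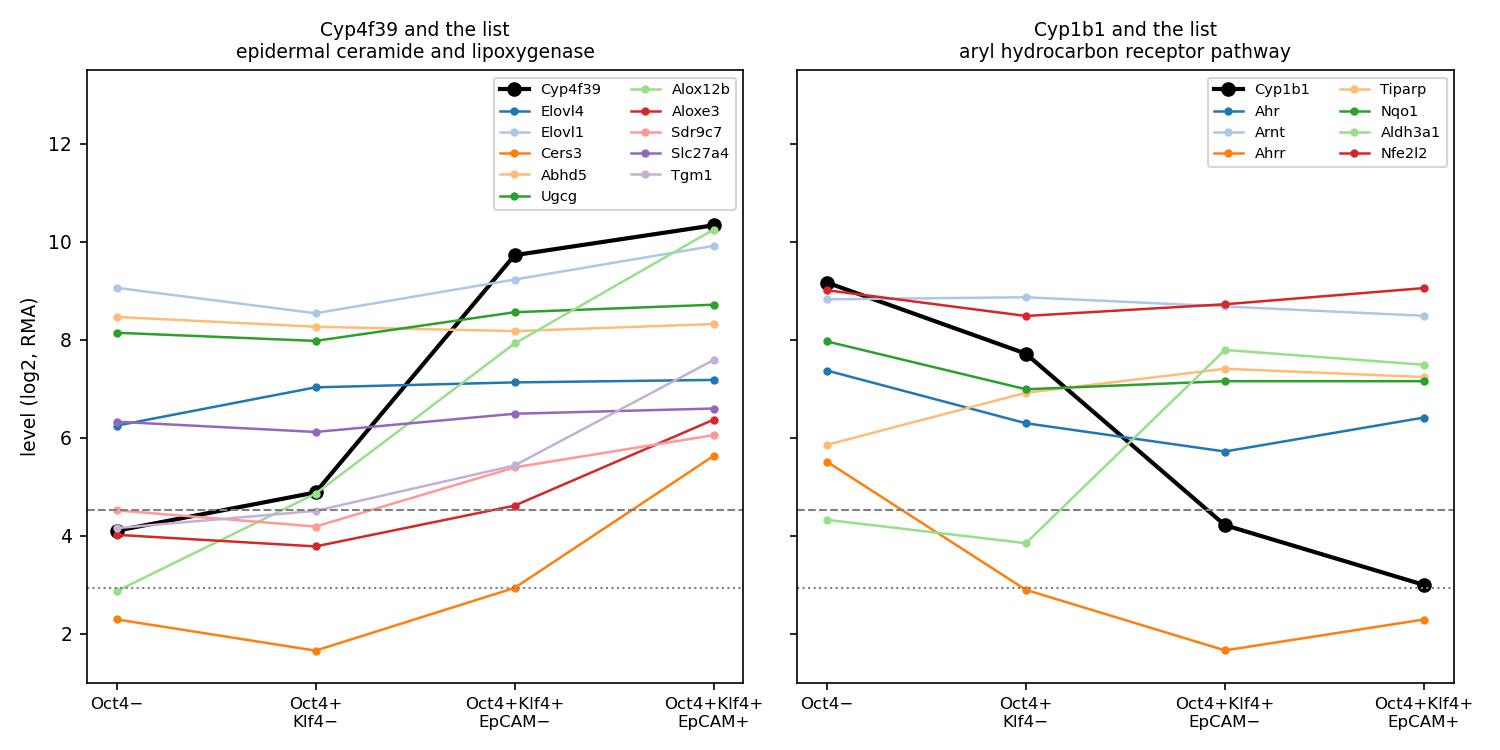
Levels (log2, RMA) in the 4 fractions in gate order, 1 array each. The left panel shows Cyp4f39 (black) with the 10 other genes of the epidermal ceramide and lipoxygenase list that reached the floor, and the right panel shows Cyp1b1 (black) with the 7 genes of the aryl hydrocarbon receptor list. The dashed line is the floor and the dotted line the background ceiling. Alox12b follows Cyp4f39 upward, while Ahrr and Cyp1b1 are lower after the first gates and Aldh3a1 is higher.

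In family 2, Cyp2s1 carried the largest difference. It encodes an enzyme of epithelial tissues outside the liver. Its levels were 4.38 in Oct4-negative, 4.90 in Oct4+Klf4-negative, 10.05 in Oct4+Klf4+EpCAM-negative and 10.54 in Oct4+Klf4+EpCAM+ cells. The Klf4-positive arrays thus stood apart from the other arrays by 5.15 on the log2 scale. The level was 35.6-fold higher in Oct4+Klf4+EpCAM-negative than in Oct4+Klf4-negative cells, a difference that ranked 4 from the top among 18193 genes, and 72.0-fold higher in Oct4+Klf4+EpCAM+ than in Oct4-negative cells. At the Oct4 and EpCAM steps its log2 differences were 0.52 and 0.50, and neither was called. It has 1 probe set, so no second reading within the array exists.

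Cyp2j6, of the subfamily that makes epoxides of arachidonic acid, had levels of 5.21, 4.13, 6.45 and 6.76 in gate order. It was 2.12-fold lower in Oct4+Klf4-negative than in Oct4-negative cells, just past the size rule, and 5.01-fold higher in Oct4+Klf4+EpCAM-negative than in Oct4+Klf4-negative cells. Both Klf4-positive arrays were above both other arrays, by 1.24 or more. Its second probe set stayed below the floor, with levels of 2.35, 2.49, 2.77 and 3.41, and did not show the lower level at the Oct4 step. With all probe sets averaged, the log2 difference at that step became -0.47 and was no longer called, while that at the Klf4 step became 1.3 and was.

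Family 4 held the other large difference. Cyp4f39 is the mouse counterpart of human CYP4F22, an enzyme that hydroxylates the very long fatty acids of epidermal acylceramides, the lipids of the skin's water barrier. Its levels were 4.10 in Oct4-negative, 4.88 in Oct4+Klf4-negative, 9.73 in Oct4+Klf4+EpCAM-negative and 10.34 in Oct4+Klf4+EpCAM+ cells. It was 28.7-fold higher in Oct4+Klf4+EpCAM-negative than in Oct4+Klf4-negative cells and 75.2-fold higher in Oct4+Klf4+EpCAM+ than in Oct4-negative cells. The differences ranked 9 and 6 from the top among 18193 genes. The log2 differences were 0.78 at the Oct4 step and 0.61 at the EpCAM step, in the same direction but under the size rule. This gene, too, has 1 probe set.

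Cyp4f16, its close relative, stayed flat, with levels of 7.51, 7.25, 7.18 and 7.20. Its second probe set, which can read several transcripts, had levels of 5.21, 5.39, 5.18 and 5.38. Neither reading was called in any comparison.

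Some of the genes that act with Cyp4f39 in the epidermal barrier were higher at the later gates, and others were called in no comparison. The list of ceramide and lipoxygenase genes had 13 members on the array with Cyp4f39 among them, and 11 reached the floor. At the Oct4 step 1 was higher and 0 lower, and at the Klf4 step 3 were higher and 0 lower. At the EpCAM step 4 were higher and 0 lower, and between the ends 6 were higher and 0 lower. Of all genes, 2.25%, 5.3%, 1.95% and 7.46% were higher in that order. Cyp4f39 itself is counted at the Klf4 step and between the ends. The median log2 difference between the ends was 1.03 over the listed genes on the array, beside 0.03 over all genes. Alox12b, a lipoxygenase that oxidises acylceramides, had levels of 2.87, 4.86, 7.92 and 10.25. It was already at least 3.78-fold higher in Oct4+Klf4-negative than in Oct4-negative cells, where Cyp4f39 was not called. It was 8.37-fold higher in Oct4+Klf4+EpCAM-negative than in Oct4+Klf4-negative cells and 5.01-fold higher in Oct4+Klf4+EpCAM+ than in Oct4+Klf4+EpCAM-negative cells.

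Of the partners, Alox12b and Sdr9c7, a dehydrogenase of skin lipids, were called at the Klf4 step as Cyp4f39 was, while Cers3, Aloxe3 and Tgm1 were called at the EpCAM step and not there. Sdr9c7 had levels of 4.52, 4.19, 5.39 and 6.05 and was 2.31-fold higher in Oct4+Klf4+EpCAM-negative than in Oct4+Klf4-negative cells. Cers3, the ceramide synthase that handles very long acyl chains, had levels of 2.29, 1.66, 2.94 and 5.63, and was at least 6.45-fold higher in Oct4+Klf4+EpCAM+ than in Oct4+Klf4+EpCAM-negative cells. Aloxe3, which acts after Alox12b, had levels of 4.02, 3.78, 4.61 and 6.37 and was 3.37-fold higher in Oct4+Klf4+EpCAM+ than in Oct4+Klf4+EpCAM-negative cells. Tgm1, the transglutaminase of the cornified envelope, had levels of 4.16, 4.51, 5.44 and 7.59 and was 4.44-fold higher in the same comparison. Elovl4, which elongates the fatty acids that Cyp4f39 hydroxylates, had levels of 6.25, 7.03, 7.13 and 7.18, and no difference was called. Abca12, the transporter of barrier lipids, stayed below the ceiling, with a highest level of 2.24. Pnpla1, which joins linoleate to the ceramide, stayed below the floor, with levels of 2.57, 2.49, 2.65 and 3.6.

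Of 19 keratinocyte markers on the array, 10 were higher and 0 lower at the Klf4 step, where Cyp2s1 and Cyp4f39 were higher too. At the EpCAM step 9 were higher and 0 lower, and neither P450 gene was called. The shares of all genes higher at these steps were 5.3% and 1.95%. The summed level of the markers was 86.3, 86.4, 116.6 and 136.5 in gate order. Pkp1, a desmosomal plakophilin, had levels of 4.32, 4.43, 9.05 and 10.24, and Krt14, a basal keratin read by a probe set open to several transcripts, had levels of 4.06, 3.96, 7.05 and 8.85. Trp63, the epidermal regulator, stayed below the floor with levels of 4.05, 4.26, 3.56 and 3.57. Krt5 was flat, with levels of 4.93, 4.86, 4.62 and 4.91. Like Trp63 and Krt5, the markers Krt10, Krt15, Col17a1, Ivl, Lor and Perp were called in no comparison. The part of cells with keratinocyte markers in the P450 differences was not tested. In sorted fractions read as bulk RNA, fewer cells of a type and less RNA per cell cannot be told apart.

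Fibroblast markers were mixed at the Oct4 step and mainly lower after it. Of 12 on the array, 3 were lower and 3 higher at the Oct4 step and 9 were lower and 1 higher at the Klf4 step. At the EpCAM step 5 were lower and 0 higher, and between the ends 10 were lower and 1 higher. Over all genes, 3.04%, 4.32%, 1.12% and 6.77% were lower in that order, and 2.25%, 5.3%, 1.95% and 7.46% higher. The summed level of the markers was 104.5, 101.8, 82.3 and 70.1 in gate order. Col1a2, a chain of type I collagen, had levels of 11.41, 9.16, 6.11 and 5.33, above the floor on every array. Dcn, the matrix proteoglycan decorin, ran the opposite way to Cyp1b1, with levels of 6.76, 8.62, 10.97 and 10.98, and was 18.7-fold higher in Oct4+Klf4+EpCAM+ than in Oct4-negative cells. Postn, the matrix protein periostin, had levels of 7.76, 10.61, 6.07 and 3.86, and was 7.22-fold higher in Oct4+Klf4-negative than in Oct4-negative cells. The part of this shift in the Cyp1b1 difference was not tested.

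Among sterol enzymes, Cyp39a1, an oxysterol hydroxylase on a side route of bile acid synthesis, was highest in the Oct4+Klf4-negative array. Its levels were 3.93, 5.48, 3.71 and 4.30 in gate order, so it reached the floor on that array alone. It was 2.93-fold higher in Oct4+Klf4-negative than in Oct4-negative cells, and 3.41-fold lower in Oct4+Klf4+EpCAM-negative than in Oct4+Klf4-negative cells. It has 1 probe set. The Oct4+Klf4-negative array is the one with the wider difference between the Gapdh transcript ends, which the Actb transcript ends did not share. The other 5 sterol and bile acid genes stayed below the floor, 3 of them at or below the ceiling.

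Cholesterol synthesis, which supplies the substrates of these enzymes, lay lower at the Oct4 step and higher at the Klf4 step by its median, with few calls. All 19 listed genes on the array reached the floor. At the Oct4 step 2 were lower, Msmo1 and Nsdhl, by 2.65-fold and 2.12-fold, both enzymes of sterol demethylation, beside 3.04% of all genes. At the Klf4 step 1 was higher, Fdft1, the squalene synthase gene, by 2.09-fold, beside 5.3% of all genes. Fdft1 was read by a probe set open to several transcripts. No member was called at the EpCAM step or between the ends, beside 3.07% and 14.2% of all genes called either way. The P450 of that pathway, Cyp51, had levels of 8.95, 8.23, 8.69 and 8.81. The list's median log2 difference was -0.49 at the Oct4 step and 0.41 at the Klf4 step, beside 0.00 and 0.01 over all genes.

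Of the steroid hormone enzymes, Cyp11a1, which cleaves the side chain of cholesterol, had levels of 3.6, 4.03, 4.20 and 4.76. It reached the floor in Oct4+Klf4+EpCAM+ cells alone and was 2.24-fold higher there than in Oct4-negative cells. Its other probe sets do not share that difference, with log2 differences of 0.02 and -0.15 at levels no higher than 2.83, below the ceiling. Averaged over the probe sets, the log2 difference was 0.35 and was not called. Cyp21a1, a hydroxylase of corticosteroid synthesis in the adrenal gland, had levels of 6.02, 6.01, 6.15 and 6.07, and its second probe set lay between 3.61 and 3.92. Star, the cholesterol carrier of steroid-producing cells, was flat as well, with levels of 6.06, 5.99, 5.87 and 5.87. Among 6 markers of such cells on the array, 2 reached the floor and 3 lay at or below the ceiling on every array.

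Cyp20a1, whose substrate is not known, had levels of 8.04, 7.78, 7.90 and 7.78. All 3 of its probe sets reached the floor, and no log2 difference of theirs was called.

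Vitamin D enzymes were below the floor. Cyp27b1, which activates the vitamin, had levels of 1.98, 1.82, 2.35 and 4.01, above the ceiling in Oct4+Klf4+EpCAM+ cells alone and at least 2.10-fold higher there than in Oct4+Klf4+EpCAM-negative cells. It was not called, because its highest level missed the floor. Cyp24a1, which breaks the vitamin down, lay between 4.25 and 4.49, and Cyp2r1, which makes its circulating form, did not pass 2.32. Vdr, the vitamin's receptor, lay between 4.41 and 4.68.

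The enzymes of retinoic acid breakdown were below the floor, although other genes of that pathway differed. Cyp26a1 had levels of 2.57, 2.5, 2.94 and 2.74, at most level with the ceiling after rounding, and Cyp26b1 had levels of 4.10, 3.74, 4.07 and 4.38, above the ceiling on every array. Of 13 retinoic acid pathway genes on the array, 7 reached the floor. At the Oct4 step 2 were lower, beside 3.04% of all genes. These were Crabp1 and Crabp2, carriers of retinoic acid in the cell, by 11.5-fold and 7.39-fold. At the Klf4 step 4 were higher, beside 5.3% of all genes. The same carriers were higher by 6.33-fold and 2.16-fold. Dhrs3, which turns retinal back to retinol, was higher by 2.94-fold, and Aldh1a3, which makes retinoic acid, by 2.51-fold. Crabp1 thus had levels of 10.79, 7.26, 9.92 and 10.40, with a dip in the Oct4+Klf4-negative array. Dhrs3 had levels of 4.49, 4.40, 5.96 and 7.05.

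In family 3, the enzymes of drug clearance, Cyp3a13 came nearest to the floor. Its levels were 2.28, 2.20, 3.75 and 3.95, above the ceiling in both Klf4-positive arrays and below it in the others. Its log2 difference was 1.55 at the Klf4 step, but it was not called because no level reached the floor. The remaining 4 family 3 genes stayed below the ceiling.

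Set side by side, the Klf4 step and the ends held 5 P450 calls each. In Oct4+Klf4-negative against Oct4-negative cells, 1 member was higher and 2 were lower of 70, beside 2.25% and 3.04% of all genes, or 4.29% of the members called either way beside 5.29% of all genes. In Oct4+Klf4+EpCAM-negative against Oct4+Klf4-negative cells, 3 members were higher (Cyp2s1, Cyp4f39 and Cyp2j6) and 2 were lower (Cyp1b1 and Cyp39a1), beside 5.3% and 4.32% of all genes. Called either way were 7.14% of the members, beside 9.62% of all genes. In Oct4+Klf4+EpCAM+ against Oct4+Klf4+EpCAM-negative cells, 0 members were called, beside 1.95% of all genes higher, 1.12% lower and 3.07% either way. Between Oct4+Klf4+EpCAM+ and Oct4-negative cells, 4 members were higher and 1 was lower, beside 7.46% and 6.77% of all genes. Called either way were 7.14% of the members, beside 14.2% of all genes. A call needs a level at the floor, which 12.9% of the members and 62.8% of all genes had, so nothing about the members is read from these shares.

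The median log2 difference over the 70 members was -0.02 at the Oct4 step, 0.05 at the Klf4 step, 0.00 at the EpCAM step and 0.03 between the ends. Over all genes it was 0.00, 0.01, 0.00 and 0.03. In a split chosen after the values were seen, 3 members had both Klf4-positive arrays at least 2-fold above both other arrays and 1 had them at least 2-fold below, beside 3.53% and 2.36% of all genes. The comparison between the ends shares its arrays with the Oct4 and EpCAM steps and is not independent of them.

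**Figure D4:**
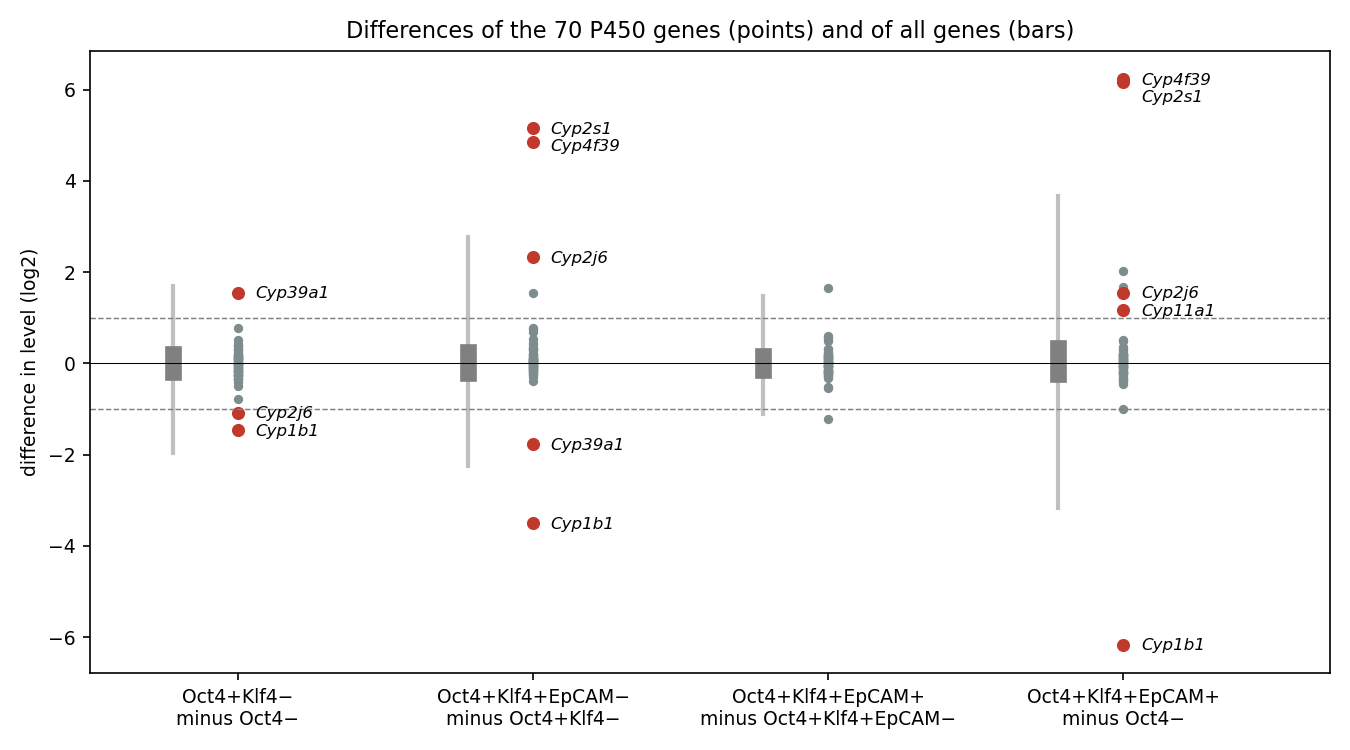
Log2 differences of the 70 P450 genes (points) in the 4 comparisons named under the axis, with called genes in red and the rest in grey. Beside each column of points, the thin bar spans the 1st to 99th percentile of all 18193 genes and the thick bar the 25th to 75th. Dashed lines mark the 2-fold rule, and grey points beyond them are genes with both levels of that comparison below the floor. Cyp2s1, Cyp4f39 and Cyp1b1 lie outside the thin bar at the Klf4 step and between the ends.

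P450 genes arose by duplication and lie in runs along the chromosomes, so the neighbours of the changed members were read. Runs were made by joining RefSeq P450 genes within 1 Mb of the next. Cyp2s1 opens a run of 13 genes on chromosome 7 that ends with Cyp2t4. Of the 8 on the array, Cyp2s1 alone reached the floor, and of the other 7 only Cyp2b10 passed the ceiling, with a highest level of 3.22. Cyp2b10, and Cyp2j11 further on, are named after their values were seen. Cyp4f39 opens a run of 8 genes on chromosome 17, 5 of them on the array. There Cyp4f16, with a log2 difference of -0.07 at the Klf4 step, stands near a gene with one of 4.84. Cyp2j6 lies within a run of 7 on chromosome 4, and the other 4 on the array stayed below the floor, with the highest level, 3.15, for Cyp2j11. The longest run, 14 Cyp2c genes on chromosome 19, had 10 on the array and 0 at the floor. The 8 Cyp2d genes of chromosome 15 had 7 on the array and 0 at the floor.

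**Figure D5:**
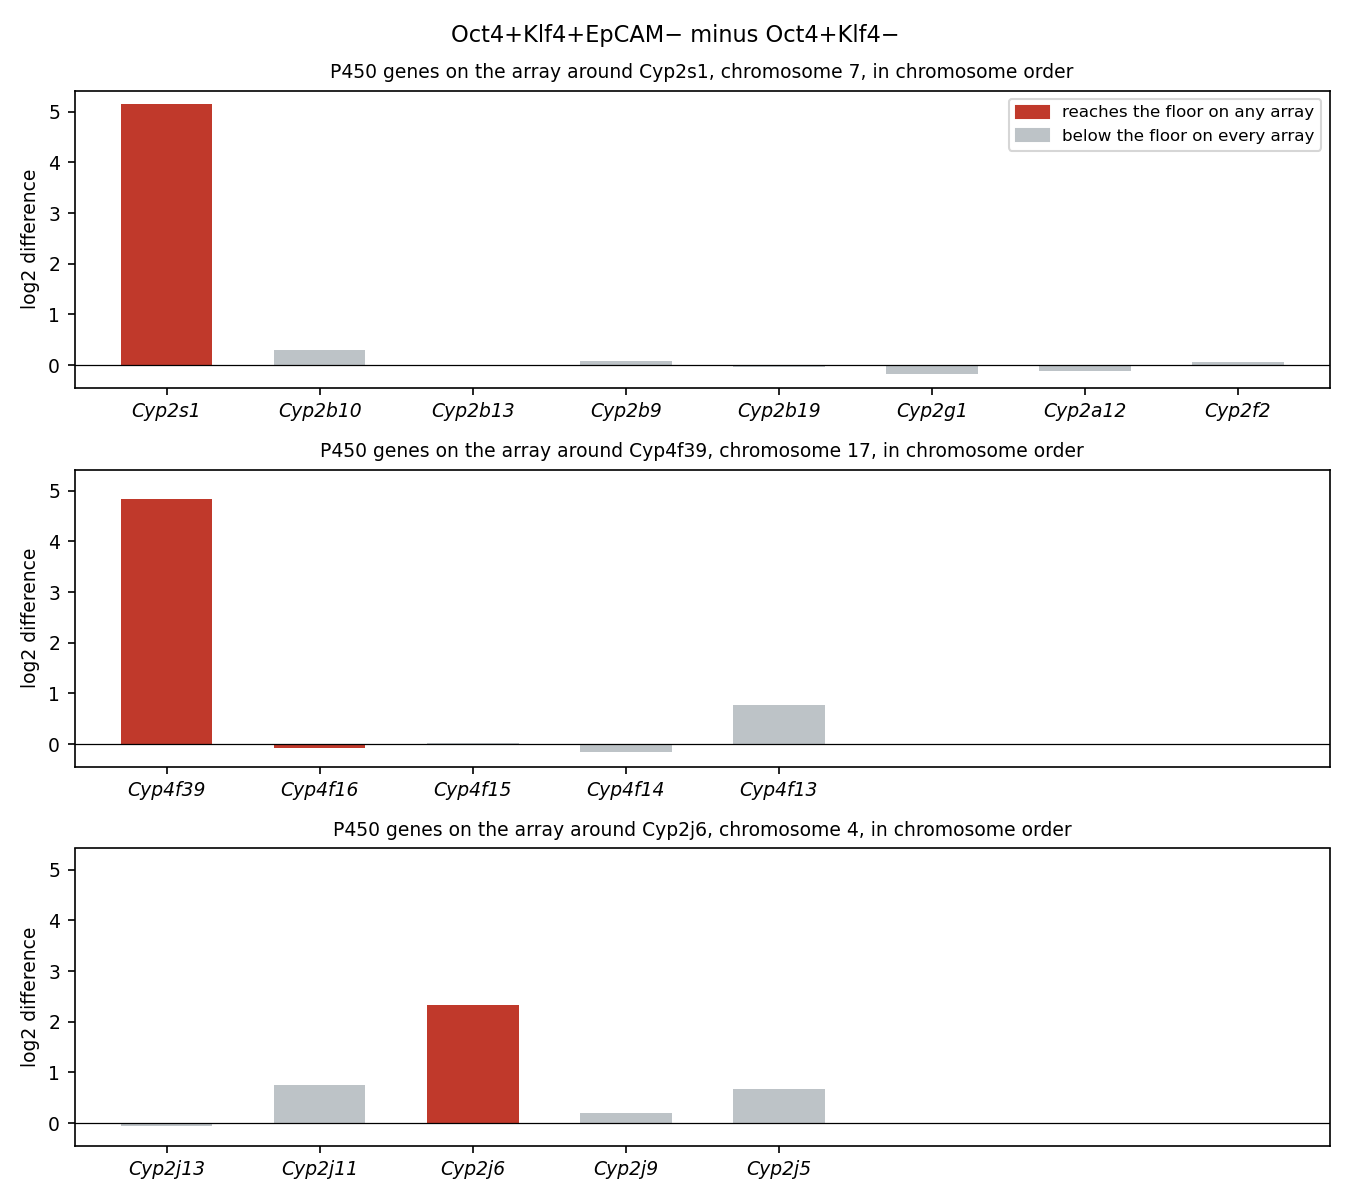
Log2 difference of Oct4+Klf4+EpCAM-negative minus Oct4+Klf4-negative cells for the P450 genes on the array in the runs that hold Cyp2s1, Cyp4f39 and Cyp2j6, in chromosome order. Bars are red where the gene reached the floor on any array and grey where it did not. Each run has 1 bar that stands out, at 5.15, 4.84 and 2.32.

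Of 11 listed genes tied to the electrons and heme of P450 enzymes, 9 were read on the array. All 9 reached the floor, beside 62.8% of all genes. Hmox1, the heme-degrading oxygenase, was 2.68-fold lower in Oct4+Klf4-negative than in Oct4-negative cells and was the only one called at the Oct4 step. None was called at the Klf4 or EpCAM step. Cyb5r3, the reductase of cytochrome b5, had levels of 11.22, 10.75, 10.24 and 10.03 and was 2.28-fold lower in Oct4+Klf4+EpCAM+ than in Oct4-negative cells. Fdx1, the mitochondrial ferredoxin, lay between 8.52 and 8.98. Por, the main reductase, and Fdxr, also listed, were not analysed here.

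Of 16 nuclear receptors of P450 genes on the array, 8 reached the floor. Nr1i2 and Nr1i3, the receptors that sense drugs, did not pass 2.95 on any array, and Hnf4a, a hepatocyte regulator, lay between 3.42 and 3.62. Rxra, a partner of Nr1i2 and Nr1i3, had levels of 7.65, 6.59, 6.53 and 6.29 and was 2.08-fold lower in Oct4+Klf4-negative than in Oct4-negative cells. Pparg, a regulator of fat cells, had levels of 4.95, 4.70, 5.19 and 5.98, with the highest in Oct4+Klf4+EpCAM+ cells.

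Enzymes that act beside or after P450s were read last. In the eicosanoid list, 7 of 12 genes on the array reached the floor. At the Oct4 step 0 were higher and 4 lower, and at the Klf4 step 1 was higher and 2 lower. At the EpCAM step 0 were called, and between the ends 0 were higher and 3 lower. Over all genes, 2.25%, 5.3%, 1.95% and 7.46% were higher in that order, and 3.04%, 4.32%, 1.12% and 6.77% lower. Ptges, a prostaglandin synthase, had levels of 8.43, 6.73, 5.05 and 4.30 and, like Cyp1b1, was lower in each array than in the one before. It was 17.4-fold lower in Oct4+Klf4+EpCAM+ than in Oct4-negative cells. Ptgis, the prostacyclin synthase, is itself a P450 under another symbol. It had levels of 5.0, 4.39, 3.57 and 3.49 and was 2.86-fold lower between the same arrays. Ptgs2, also listed, had levels of 7.40, 4.91, 6.61 and 6.81. Unlike Ptges, it was higher at the Klf4 step, by 3.24-fold, after a 5.63-fold lower level at the Oct4 step.

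Conjugating enzymes went both ways. Of 18 on the array, 14 reached the floor, and between the ends 4 were higher and 6 lower, beside 7.46% and 6.77% of all genes. Sult2b1, the sulfotransferase of cholesterol in skin, had levels of 3.14, 2.82, 5.24 and 7.67 and was 23.1-fold higher in Oct4+Klf4+EpCAM+ than in Oct4-negative cells. Gsta4, a glutathione transferase for lipid aldehydes, had levels of 7.93, 8.22, 10.07 and 10.21 and was 4.86-fold higher between the same arrays. Mgst1, a membrane-bound transferase, had levels of 7.87, 7.40, 6.44 and 5.29 and was 5.98-fold lower. The list's median log2 difference between the ends was 0.04, beside 0.03 over all genes.

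Macrophage and leukocyte markers were read because such cells hold P450 genes of eicosanoid breakdown. Of 11 on the array, between 2 and 3 reached the floor on each array, and 4 to 6 lay at or below the ceiling. At the Oct4 step 0 markers were higher and 2 lower, and at the Klf4 step 2 were higher and 0 lower. At the EpCAM step 0 were higher and 1 lower, and between the ends 1 was higher and 1 lower. Over all genes, 2.25%, 5.3%, 1.95% and 7.46% were higher in that order, and 3.04%, 4.32%, 1.12% and 6.77% lower. The summed level was 38.8, 36.1, 44.1 and 43.5 in gate order, and Laptm5, read by a probe set open to several transcripts, had levels of 3.81, 4.69, 9.50 and 8.38. Cd68 was 2.43-fold lower between the ends, with levels of 7.76, 5.95, 6.32 and 6.48 in gate order. Tyrobp, another of the markers, lay below the ceiling on every array. Ptprc, the defining leukocyte gene, had levels of 2.0, 2.13, 2.93 and 3.64, below the floor throughout. The part of such cells in the P450 differences was not tested.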

How the data were processed

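RNA of the 4 fractions was recovered with the RecoverAll kit and amplified with the Ovation Pico WTA kit, per the labels' protocols, steps that can change a transcript's level according to its integrity. The authors deposited log2 levels from RMA (robust multi-array average), per the submitters' processing notes, with the version not given in the sources used here. Values ran from 1.31 to 14.4 over 45101 probe sets, of which 64 controls were left out. The platform annotation gave 1 symbol to 34945 probe sets and several to 932, which stood for no gene, while 9160 had no name. RefSeq gene identifiers changed 0 symbols.

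Levels, differences and counts were computed with Python 3.11.15, numpy 2.4.6 and pandas 2.3.3, and the size rule was tried on simulated arrays. Their scatter was that between probe sets of a gene, which holds no variation among cultures or sorts. The simulation therefore cannot say how reliable a call between fractions is. There was 1 array per group, so no test was run, and precision is limited by how few arrays there are. Where the dimmer level did not pass the ceiling, the ceiling took its place and the fold is written "at least". Members that reached the floor could be named, and members below it only where their role had none above it. In the 14 gene lists, called genes or those tied to a P450 described were named, and some uncalled ones after their values were seen. Members, lists and rules were chosen with earlier results of these data known. Alternatives concerned the probe set, the floor, the array scaling and the size rule.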

Additional observations from a re-analysis of the deposited data

Results flagged for a closer look

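The probe set shared by Cyp4f37 and Cyp4f16 was not used for a gene because it has 2 symbols, yet its highest level was 5.36, above the background ceiling of 2.94. Its levels were 5.36, 4.78, 5.19 and 5.19 in gate order, and which of these genes it reads was not tested.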

How the results depend on the processing

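No paired analysis was possible because each fraction has 1 array. Counts of P450 genes kept within 1.5 times of the values given with each array centred on its median or with probe sets averaged. They did so too when probe sets able to read several transcripts were used only where a gene had no other. The probe sets that stand for the members at the floor are not of that kind. That alternative therefore left the values of these members unchanged and could not remove their calls. With averaging, 8 members reached the floor, and the calls of Cyp2j6 at the Oct4 step and of Cyp11a1 between the ends were lost. With a stricter floor of 6.87 (the 75th percentile), 5 members reached it, and 1 was called at the Oct4 step (Cyp1b1), 3 at the Klf4 step and 3 between the ends (Cyp2s1, Cyp4f39 and Cyp1b1 in both). With no floor, 2 were called at the EpCAM step, Cyp27b1 higher and Cyp1b1 lower. With a size rule of 1.5-fold, 1 was called at the EpCAM step, Cyp4f39. With 3-fold, 0 were called at the Oct4 step and 3 between the ends. The calls of Cyp2s1, Cyp4f39 and Cyp1b1 at the Klf4 step and between the ends held under every alternative run, and no called difference changed sign. Not every alternative could have removed them. Cyp2s1 and Cyp4f39 have 1 probe set each, so the alternatives on the probe set left their values unchanged. Dropping the floor or using the 1.5-fold rule can only add calls. Levels near the ceiling limit what can be said of the 44 lowest members, since small differences there cannot be read.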
